A study of Mus musculus with 9 samples.

Results

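Acacetin is a flavone made by plants, and the comparison of 10 with 0 μM acacetin shows what a 3-day exposure to it did to the transcriptome of activated T helper cells. Naive CD4+ T cells were taken from the spleens and lymph nodes of normal mice, labelled WT, and were activated on plates coated with antibodies to CD3 and CD28. The methods describe the animals as male BALB/c mice, 6 to 7 weeks old at purchase, and name DMSO as the solvent of acacetin, which was added at the start of the culture. The medium is named differently in the methods (IMDM) and in the sample labels (an RPMI medium). RNA was taken on day 3 from 3 cultures at 0 μM and 3 at 10 μM, labelled as biological replicates. These 6 libraries are the ones compared here, out of 9 in the series, which also holds 3 libraries at 5 μM. The genes described are the 12175, of 24863 symbols in the count matrix, that passed a filter on low counts. Where several entries shared a symbol, the entry with the most counts was kept.

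A naive T cell is small and quiescent. Engagement of the T cell receptor together with CD28 starts calcium, MAP kinase and NF-κB signals, which induce NFAT, AP-1, NR4A and EGR factors within hours and interleukin-2 soon after. Interleukin-2 then acts through STAT5, and over the following days the cell enlarges, raises glycolysis and respiration, divides repeatedly and acquires effector and inhibitory receptors. Genes of homing to lymph nodes and of quiescence, such as those for CCR7 and TCF-1, are lowered as this proceeds. Stress sensed by p53 or by kinases of eIF2α changes further sets of genes, which share some members, among them those of growth arrest and cell death and those of amino acid supply.

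The total count was 19972618 to 23873709 (median 20215281) in the 0 μM libraries and 20022480 to 22210543 (median 20083105) in the 10 μM libraries, and 11314 of the genes tested had at least 10 counts in every library. Levels are given as normalised read counts (CPM), scaled to library sizes that the trimmed mean of M values (TMM) corrected. A gene counted as changed when its p from the quasi-likelihood test of edgeR, fitted to all 9 libraries and adjusted by the Benjamini-Hochberg method, was below 0.05. Fold changes are log2 of 10 over 0 μM, with the standard error of that fit. Replicates differed little, with a common coefficient of variation of 3.65%, so that small changes were called. Apart from the word biological in the labels, the source animals of the cultures are not described, and a p weighs a change only against the variation among them. All 10 markers fixed for CD4 T cells exceeded 10 CPM at both doses, and their sum was 3646 to 3688 CPM at 0 μM and 3452 to 3601 CPM at 10 μM. Of them, Thy1 (-0.62, 224 to 146 CPM) fell and Cd2 (0.42, 162 to 217 CPM) rose. Among the markers of other cells, B cell markers summed to 145 to 152 CPM at 0 μM and 163 to 165 CPM at 10 μM, of which Ighm made up nearly all, with 8 of the 10 under 1 CPM. Among these 6 libraries, 1 stood apart: in 10 μM replicate 1 the 8 lung epithelial markers summed to 114 CPM, against 25.1 to 39.3 CPM in the other 5 libraries, and the 7 erythroid markers to 23.6 CPM, against 1.54 to 2.49 CPM. Without that library, 5477 genes in place of 5765 were called, and 881 in place of 911 over 1.5-fold. Of the 5 μM libraries, which share the fit, replicate 2 held 26.2 CPM of the 7 liver markers, against 1.77 to 2.36 CPM in the other 8 libraries.

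At 10 μM acacetin, 2900 genes rose (23.8% of those tested) and 2865 fell (23.5%). Most of the changes were small: the median absolute log2 fold change of the called genes was 0.27, and 84.2% of them changed by less than 1.5-fold. Over 1.5-fold, the threshold the study used, 502 genes rose (4.12%) and 409 fell (3.36%). Over 2-fold, 146 rose and 176 fell, and over 4-fold 19 rose and 24 fell. The 0 and 10 μM libraries did not overlap for 3302 genes that were higher (27.1%) and 3297 that were lower (27.1%). The share of genes called depended on the level, from 12.9% of the genes with a mean log2 CPM of 0 or less to 72.5% of those over 8, whereas the share over 1.5-fold was 20.4% at a mean log2 CPM of 0 to 2 and 2.04% over 8. A test against a fold of 1.5 itself (edgeR's glmTreat) called 142 genes higher and 110 lower. Between 10 and 5 μM, 1104 genes differed (9.07%), a count that became 719, 731 and 618 without 5 μM replicates 1, 2 and 3 and 721 without 10 μM replicate 3.

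**Figure D1:**
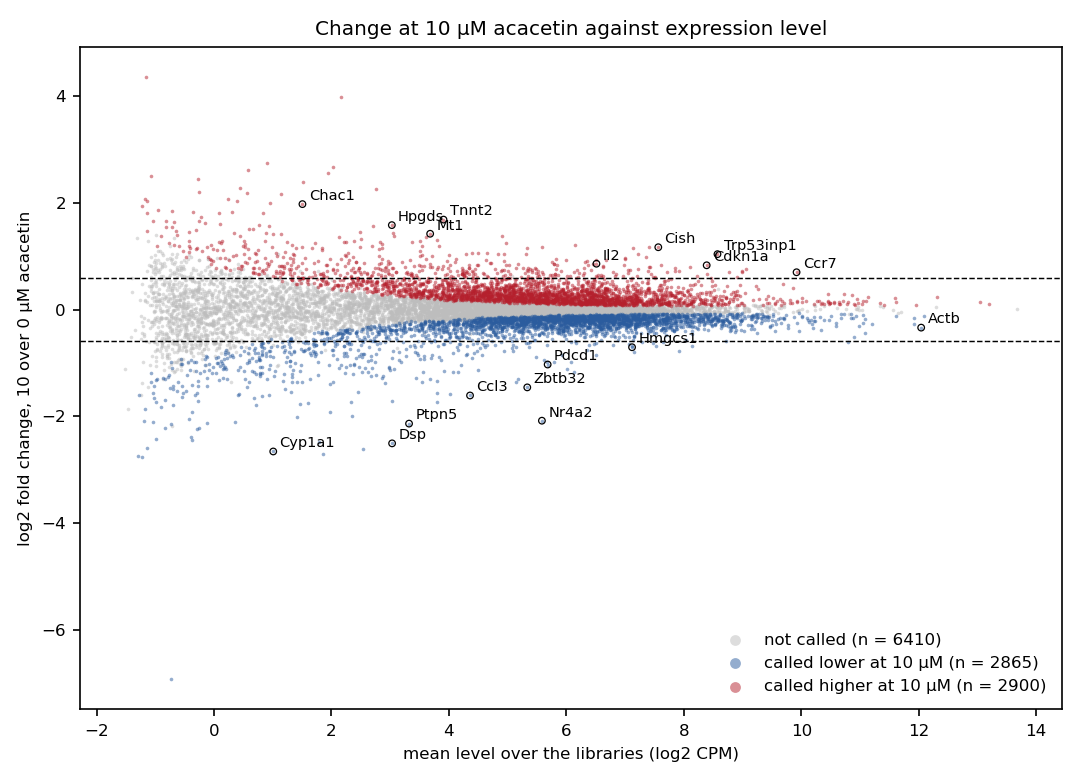
Log2 fold change of 10 over 0 μM acacetin (y axis) against the mean level over the libraries in log2 CPM (x axis), 1 point per gene tested, with 2900 genes called higher in red, 2865 called lower in blue and the others in grey. The dashed lines mark a fold of 1.5, and most coloured points lie between them, while the named genes with the largest changes lie toward lower levels.

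Where the mean log2 CPM reached 3 and the libraries of both doses were apart, the deepest reductions were in genes for an adhesion protein, a phosphatase and an orphan nuclear receptor. Dsp encodes desmoplakin, which anchors intermediate filaments at desmosomes, and stood at 16.4, 17.6 and 15.8 CPM at 0 μM and 3.41, 2.13 and 3.21 CPM at 10 μM (log2 fold change -2.50 ± 0.14, adjusted p = 3.3e-11). Ptpn5, a tyrosine phosphatase that acts on MAP kinases, stood at 17.2, 18.1 and 18.9 CPM at 0 μM and 4.32, 4.17 and 3.88 CPM at 10 μM (log2 fold change -2.13 ± 0.10, adjusted p = 5.56e-12). Nr4a2, an orphan nuclear receptor gene that the T cell receptor induces within hours, was the most abundant of the 3, at 92.3, 91.5 and 86.9 CPM at 0 μM and 21.4, 22.2 and 20.5 CPM at 10 μM (log2 fold change -2.08 ± 0.05, adjusted p = 5.64e-16). None of the 3 overlapped between the groups, and each 5 μM mean lay between, at 4.71 CPM for Dsp, 7.43 CPM for Ptpn5 and 32 CPM for Nr4a2. The other 9 of the 12 largest reductions (log2 fold change and mean CPM at 0 and 10 μM in parentheses) were in the adhesion gene Cadm1 (-1.73, 24.3 to 7.32 CPM), in Lancl3 (-1.71, 13 to 3.95 CPM), the chemokine gene Ccl3 (-1.61, 34.7 to 11.4 CPM), Lgals7 (-1.57, 26.3 to 8.83 CPM), which encodes galectin-7, Mlkl (-1.55, 22 to 7.5 CPM), the executor of necroptosis, Zbtb32 (-1.46, 65.9 to 24 CPM), a repressor of cytokine genes in activated T cells, the chemokine gene Ccl4 (-1.36, 19.2 to 7.5 CPM), the organic anion transporter gene Slco4a1 (-1.35, 53.3 to 21 CPM) and the serpin gene Serpina3g (-1.33, 21.3 to 8.42 CPM). Ccl3 and Ccl4 are close paralogs, and how the authors assigned reads that match several genes is not known here.

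The 12 largest increases at these levels ran from a log2 fold change of 1.69 to 1.21. Tnnt2, known as the troponin T gene of heart muscle, stood at 5.93, 6.72 and 7.73 CPM at 0 μM and 19.7, 23.2 and 23 CPM at 10 μM (log2 fold change 1.69 ± 0.10, adjusted p = 1.11e-10). Hpgds, the hematopoietic prostaglandin D synthase gene, stood at 3.97, 3.48 and 4.01 CPM at 0 μM and 10.7, 11.9 and 11.8 CPM at 10 μM (log2 fold change 1.58 ± 0.11, adjusted p = 6.65e-10). These were 3.22-fold and 2.99-fold higher, with no overlap. Both metallothionein genes were among the 12, as were Zfp750 (1.44, 4.33 to 11.7 CPM), a factor gene known from epidermis, Hmcn2 (1.37, 15.8 to 41 CPM), Slc6a9 (1.36, 6.87 to 17.6 CPM), a glycine transporter gene, Casz1 (1.31, 7.84 to 19.3 CPM), a zinc-finger factor gene, Adam19 (1.29, 6.5 to 15.9 CPM), a metalloprotease gene, and Robo3 (1.27, 5.66 to 13.6 CPM), known from axon guidance. The remaining 2 were Pik3ip1 (1.26, 17.7 to 42.3 CPM), an inhibitor gene of PI3 kinase, and Plk2 (1.21, 42.4 to 98 CPM), a p53 target. For each of the 12 the 5 μM mean lay between the others, as at 71.2 CPM for Plk2 and 16 CPM for Tnnt2.

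**Figure D2:**
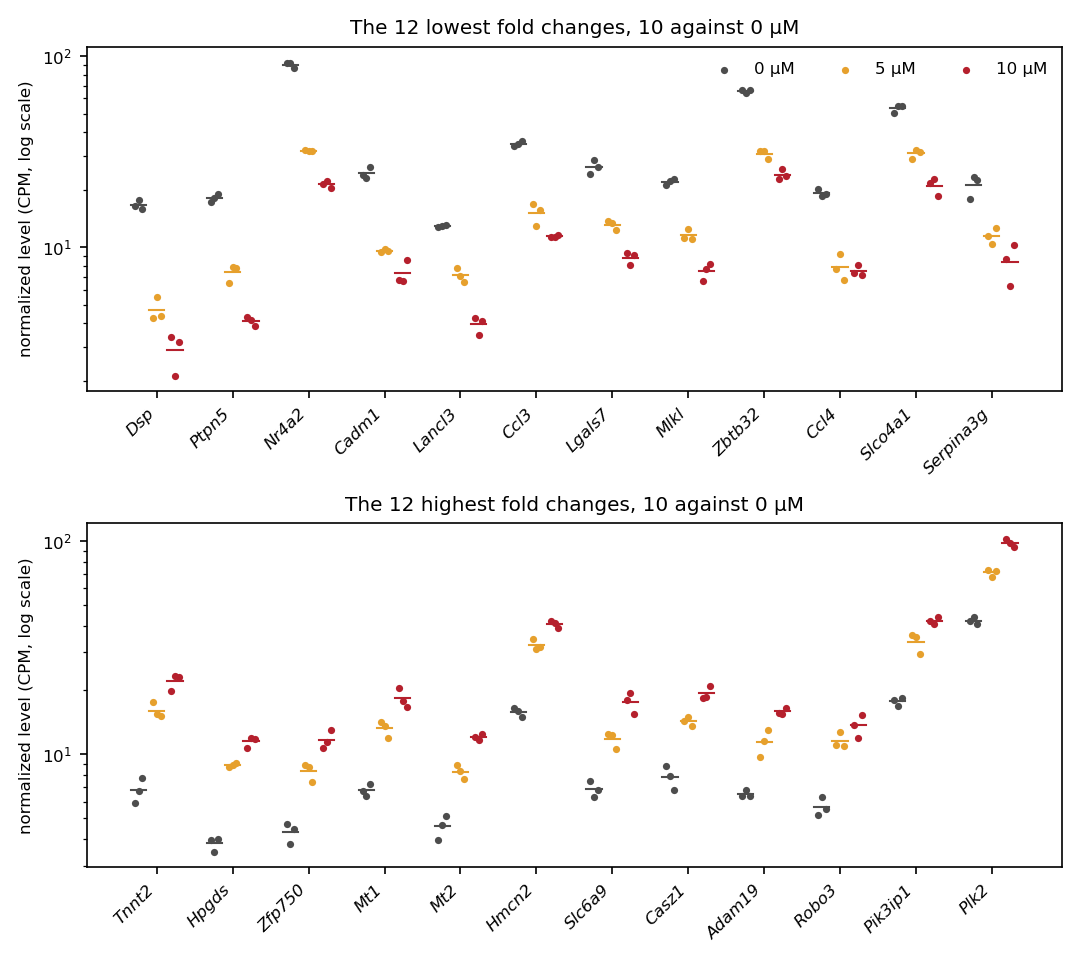
Normalized level in CPM (log scale) in each library of the 12 genes with the lowest (upper panel) and the 12 with the highest fold change (lower panel) among genes whose mean log2 CPM reached 3, with 3 points and a bar at their mean for each dose. The 0 and 10 μM points of every gene are apart, and the mean at 5 μM lies between their means.

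Below a mean log2 CPM of 3 the largest changes were those of transcripts at low levels. Try5, a trypsin gene, stood at 0.805, 0.896 and 0.803 CPM at 0 μM and 5.17, 4.17 and 3.84 CPM at 10 μM (log2 fold change 2.39 ± 0.21, adjusted p = 3.19e-08). The 10 macrophage markers summed to 2.36 to 4.13 CPM at 0 μM and 8.59 to 21.7 CPM at 10 μM, and 7 of them averaged under 1 CPM at both doses, with Fcgr1 at 0 in all 6 libraries. Part of the upper value was Lyz2 in 10 μM replicate 1, at 11.1 CPM. Fsbp was listed at 0 in 0 μM replicates 2 and 3, at 0.101 CPM in replicate 1 and at 0.803, 0.943 and 0.542 CPM at 10 μM. Siglece, a sialic acid-binding receptor gene, reached 0.652, 0.844 and 0.722 CPM from 0.151, 0.0995 and 0.127 CPM, and Nyx 1.0, 1.09 and 1.08 from 0.251, 0.249 and 0.0845 CPM. Among the reductions were Col5a3, a collagen V chain gene, at 8.15, 6.87 and 8.75 CPM at 0 μM and 0.853, 1.24 and 1.53 CPM at 10 μM (log2 fold change -2.70 ± 0.21, adjusted p = 4.59e-09). Dgkk, a diacylglycerol kinase gene, stood at 11.8, 11.3 and 10.6 CPM at 0 μM and 1.66, 2.23 and 1.63 CPM at 10 μM (log2 fold change -2.61 ± 0.16, adjusted p = 1.37e-10). Of these, Col5a3 stood at 1.4 CPM at 5 μM, a level that did not pass the test against 10 μM (adjusted p = 0.679), while Dgkk was lower again at 10 μM (adjusted p = 0.000503). C1ra, of the complement cascade, fell to 0.1, 0.0993 and 0.0903 from 0.503, 0.647 and 0.887 CPM. Pwwp4a lost its call in 2 of the alternatives and had no count in 2 of the 10 μM libraries.

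Ranked by p, the changes were of moderate size in well expressed genes. After Nr4a2 came Cish, an inhibitor of cytokine receptors that STAT5 induces, and the list went on with the AP-1 gene Jun, the cell cycle inhibitor gene Cdkn1a, Lad1, the transcriptional corepressor gene Irf2bp2, and the chromatin organizer gene Satb1, all of which rose. Lad1 stood at 108, 114 and 106 CPM at 0 μM and 252, 237 and 247 CPM at 10 μM (log2 fold change 1.16 ± 0.04, adjusted p = 6.17e-14). Satb1 stood at 386, 383 and 385 CPM at 0 μM and 661, 659 and 641 CPM at 10 μM (log2 fold change 0.77 ± 0.03, adjusted p = 8.16e-14). Neither overlapped between the groups. Also among the 15 smallest p were the reductions of Angptl2 (-1.16, 101 to 45 CPM), an angiopoietin-like factor gene, Myh10 (-1.12, 94.2 to 43.4 CPM), the nonmuscle myosin IIB gene, and Zbtb32, and the increases of Ccr7 (0.70, 747 to 1213 CPM), Ddit4 (0.83, 139.6 to 248 CPM), Trp53inp1 (1.04, 238 to 489.6 CPM) and Tagap (0.81, 121 to 212 CPM), a GTPase-activating protein gene of T cells.

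The receptor's own signaling genes changed in both directions. Of 28 genes of the T cell receptor complex and proximal signaling, 11 rose and 7 fell, with a median log2 fold change of 0.04, against 23.8% higher, 23.5% lower and a median of 0.00 over all genes tested. The counts of each list that follows are to be read against the same shares. These shares depended on the level: of genes at a mean log2 CPM of 6 to 8, 63.5% were called in either direction. Grap, an adaptor gene, rose from 166 to 286 CPM (log2 fold change 0.79 ± 0.03, adjusted p = 1.04e-12), and so did the kinase gene Zap70 (0.25, 454 to 539 CPM) and the ubiquitin ligase gene Cblb (0.26, 274 to 328 CPM). Reductions were led by Ubash3b, a phosphatase gene that dampens the receptor signal (47.9, 41.6 and 47.3 CPM at 0 μM and 26.2, 27.1 and 26.5 CPM at 10 μM; log2 fold change -0.78 ± 0.06, adjusted p = 2.33e-09), which did not overlap between the groups. Ptpn22 (-0.34), Ptpn6 (-0.23), Cd3g (-0.18) and Cd4 (-0.12) also fell. The kinase gene Lck and the adaptor genes Lat and Lcp2 were not called, at log2 fold changes of -0.02, 0.03 and 0.01.

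The immediate-early factors split within families. Of 9 NR4A and EGR genes, 6 fell and 1 rose, and the 3 NR4A receptors differed. Beside the 4.23-fold lower Nr4a2, Nr4a1 stood at 209.7, 209.9 and 208 CPM at 0 μM and 164, 166 and 164 CPM at 10 μM (log2 fold change -0.34 ± 0.03, adjusted p = 1.03e-08). Nr4a3 stood at 164, 154 and 153 CPM at 0 μM and 160.4, 168 and 159 CPM at 10 μM (log2 fold change 0.05 ± 0.03, adjusted p = 0.257), with overlapping groups. Egr2 (-0.22), Egr3 (-0.28), Egr4 (-0.97) and the EGR corepressor gene Nab2 (-0.31) fell, whereas Egr1 rose (0.29, 49.4 to 60.3 CPM). Of 13 AP-1 and BATF genes, 7 rose and 3 fell, with 4 in place of 7 higher when 10 μM replicate 3 was left out. Jun stood at 107, 109.8 and 106 CPM at 0 μM and 211, 217 and 211 CPM at 10 μM (log2 fold change 0.99 ± 0.03, adjusted p = 4.7e-14), and Fos (0.51) and Maff (0.70) rose with it, whereas Junb, at 480.3, 478 and 478 CPM at 0 μM and 388, 389 and 405 CPM at 10 μM (log2 fold change -0.28 ± 0.03, adjusted p = 1.55e-07), and Fosb (-0.37) fell. Jun and Junb thus moved in opposite directions, with no overlap in either. Nr4a1 and Junb were lowest at 5 μM, with means of 145 and 355 CPM, and both were higher at 10 than at 5 μM (adjusted p = 0.00035 and 0.00205). Of 10 NFAT and calcineurin genes, 1 rose and 3 fell, the latter Nfatc1 (-0.14), Nfatc2 (-0.17) and the calcineurin subunit gene Ppp3r1 (-0.29).

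Genes around cAMP signaling changed in both directions. Salt-inducible kinases hold CREB coactivators in the cytosol, and Sik1, itself a CREB target, stood at 101, 99.8 and 97.2 CPM at 0 μM and 47.3, 50.2 and 53.5 CPM at 10 μM (log2 fold change -0.98 ± 0.05, adjusted p = 5.12e-12). Its libraries did not overlap, and its 5 μM mean of 51.8 CPM did not pass the test against 10 μM (adjusted p = 0.678). Sik2 rose (0.30). Both Gs-coupled prostaglandin E2 receptor genes of the list rose, Ptger4 at 39.9, 39.7 and 33.5 CPM at 0 μM and 71.8, 73.6 and 72.6 CPM at 10 μM (log2 fold change 0.95 ± 0.06, adjusted p = 9.43e-11) and Ptger2 (0.72, 21.8 to 35.9 CPM), as did the phosphodiesterase genes Pde3b (0.47), Pde4b (0.26) and Pde4d (0.19). In all, 10 of 20 genes rose and 5 fell, and without 0 μM replicate 2 only 3 were lower.

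The NF-κB genes leaned upward. Of 23 genes for its subunits, inhibitors and feedback proteins, 18 rose and 2 fell (median 0.30). The inhibitors that NF-κB itself induces were among the largest: Nfkbia, which encodes IκBα, stood at 361, 384 and 376 CPM at 0 μM and 629, 604 and 592 CPM at 10 μM (log2 fold change 0.70 ± 0.03, adjusted p = 1.43e-12). Tnfaip3, which encodes the deubiquitinase A20, stood at 259.6, 256 and 248 CPM at 0 μM and 404, 409 and 396 CPM at 10 μM (log2 fold change 0.66 ± 0.03, adjusted p = 1.43e-12). Nfkbiz (0.85), Bcl3 (0.79) and the kinase gene Ikbke (0.81) rose by over 1.5-fold as well. The 2 members that fell were subunit genes, Rel (-0.30, 266 to 215 CPM) and Nfkb1 (-0.09, 627 to 589 CPM), whereas Nfkb2 (0.44), Rela (0.31) and Relb (0.29) rose. In RefSeq promoters (GRCm38.p6, 250 bases before to 50 after a start), 9 of the 19 members with a promoter in the table (47.4%) held the κB letters GGGNNTTCC on either strand, against 8.65% of all 9562 genes with a promoter. Of the 2 Tnfaip3 promoters in the table, 1 held a match and the other held none. The one with the match is shown in capitals at the match, because Tnfaip3 was among the largest of these increases.
Tnfaip3, chr10:19015361-19015660, minus strand: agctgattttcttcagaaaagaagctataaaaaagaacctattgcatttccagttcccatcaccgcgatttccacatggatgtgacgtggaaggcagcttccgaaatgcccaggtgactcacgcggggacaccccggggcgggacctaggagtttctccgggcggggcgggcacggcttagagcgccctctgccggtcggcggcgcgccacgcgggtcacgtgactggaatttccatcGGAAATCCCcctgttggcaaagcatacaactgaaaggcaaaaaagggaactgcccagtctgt

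Feedback genes of MAP kinase and cytokine signals rose more often than they fell. Among 16 MAP kinase phosphatase and Sprouty genes, 8 rose and 2 fell. Dusp1, a phosphatase gene for JNK and p38, stood at 55.4, 57.3 and 57.2 CPM at 0 μM and 110.2, 105 and 103 CPM at 10 μM (log2 fold change 0.91 ± 0.04, adjusted p = 3.43e-12), and Dusp2 (0.65, 43.4 to 68.3 CPM), Dusp8 (1.57, 3.38 to 10.02 CPM), Dusp10 (0.58, 33 to 49.5 CPM) and Spry1 (0.78, 57.6 to 98.7 CPM) also rose, while the ERK phosphatase gene Dusp6 (-0.14) and Spred1 (-0.18) fell. Dusp6 lost its call in 2 of 15 alternatives. Of 11 genes for CIS, SOCS and PIM proteins, 7 rose and 2 fell. Cish stood at 115, 114 and 113 CPM at 0 μM and 259, 258 and 251 CPM at 10 μM (log2 fold change 1.17 ± 0.03, adjusted p = 2.46e-15), which was 2.25-fold higher. Pim1 (0.79, 198 to 343 CPM) and Socs2 (0.86, 8.5 to 15.4 CPM), both known STAT5 targets, rose, whereas Socs3 (-0.29, 21 to 17.2 CPM) fell.

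Among 27 interleukin receptor, JAK and STAT genes, 15 rose and 6 fell, and the reductions included the route of interleukins 12 and 18 to T helper 1 cells. Il12rb2 stood at 8.2, 7.81 and 6.93 CPM at 0 μM and 3.96, 3.92 and 4.65 CPM at 10 μM (log2 fold change -0.86 ± 0.15, adjusted p = 0.000111). Stat4, which interleukin-12 activates, stood at 52.3, 50.1 and 50.3 CPM at 0 μM and 35.1, 29.8 and 34.3 CPM at 10 μM (log2 fold change -0.62 ± 0.06, adjusted p = 7.15e-08). Il12rb1 (-0.39, 239 to 182 CPM) and Il18rap (-1.04, 5.36 to 2.62 CPM) fell too, as did Stat3 (-0.15). On the other side, Stat5a stood at 231, 239 and 228 CPM at 0 μM and 348, 370.4 and 364 CPM at 10 μM (log2 fold change 0.63 ± 0.03, adjusted p = 7.27e-12), and the interleukin-7 receptor gene Il7r (0.82, 7.5 to 13.3 CPM), Ifngr2 (0.75, 30.2 to 50.5 CPM), Jak3 (0.27) and Il4ra (0.33) rose. None of the named genes overlapped between the groups.

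Cytokine genes did not move as a block. Of 16 tested, 7 rose and 3 fell (median 0.49). Il2, the growth factor gene of activated T cells, stood at 66.4, 63.8 and 63.6 CPM at 0 μM and 119, 118 and 114 CPM at 10 μM (log2 fold change 0.86 ± 0.04, adjusted p = 1.02e-12). Tnf stood at 20.7, 20.7 and 21.8 CPM at 0 μM and 37.3, 31.9 and 37.4 CPM at 10 μM (log2 fold change 0.75 ± 0.07, adjusted p = 4.08e-08). Both were higher in all 3 libraries at 10 μM, and Il2 was intermediate at 5 μM, at 92 CPM. Lif (0.83, 42.3 to 75 CPM) and Ltb (0.61, 142 to 217 CPM) rose as well, and so did Il10, at 1.86, 1.74 and 1.08 CPM from 0.754, 0.199 and 0.38 CPM. Il3 fell, from 2.01, 2.74 and 2.49 to 0.502, 0.348 and 0.813 CPM (log2 fold change -2.10 ± 0.31, adjusted p = 1.88e-05), and so did Csf1 (-0.50, 17.2 to 12.2 CPM) and Mif (-0.15, 889 to 800.0 CPM). Ifng, the signature cytokine gene of T helper 1 cells, stood at 2.77, 3.09 and 3.25 CPM at 0 μM and 3.21, 2.18 and 2.66 CPM at 10 μM, and its groups overlapped (log2 fold change -0.18 ± 0.21, adjusted p = 0.512). Il6, Il1b, Il17a and Il17f did not pass the filter, with 0 to 5, 0 to 4, 0 to 4 and 1 to 9 counts per library over all 9, so that a difference in them was not detectable at this depth.

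Of 7 chemokine genes tested, 2 fell and 1 rose. Ccl3 stood at 33.7, 34.7 and 35.8 CPM at 0 μM and 11.3, 11.3 and 11.6 CPM at 10 μM (log2 fold change -1.61 ± 0.08, adjusted p = 9.25e-12). Ccl4 stood at 20.2, 18.6 and 18.9 CPM at 0 μM and 7.33, 8.04 and 7.13 CPM at 10 μM (log2 fold change -1.36 ± 0.10, adjusted p = 2.12e-09). For both, the 3 libraries at 10 μM lay below all 3 at 0 μM. Ccl5, another chemokine gene of T cells, stood at 3.62, 3.09 and 2.92 CPM at 0 μM and 2.51, 3.28 and 3.43 CPM at 10 μM and was not called (adjusted p = 0.856). Xcl1, which encodes lymphotactin, rose (0.75, 2.65 to 4.45 CPM).

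Among receptors for migration, those of lymph node homing were higher. Of 21 chemokine and homing receptor genes, 9 rose and 5 fell. The lymph node homing genes rose: Ccr7 stood at 742, 751 and 748 CPM at 0 μM and 1237, 1199 and 1203 CPM at 10 μM (log2 fold change 0.70 ± 0.03, adjusted p = 1.64e-13). S1pr1, the gene of the receptor for exit from lymph nodes, stood at 8.05, 9.91 and 7.78 CPM at 0 μM and 17.3, 18.3 and 15.7 CPM at 10 μM (log2 fold change 1.00 ± 0.10, adjusted p = 7.76e-08). Neither overlapped between the groups, and each was between them at 5 μM. Cxcr4 (1.45, 2.95 to 8.09 CPM), Ccr4 (0.66, 23 to 36.5 CPM) and Ccr8 (0.90, 12.1 to 22.5 CPM) rose too. Reductions were found in receptors of inflamed tissue and follicles, Cxcr3 (-1.35, 3.92 to 1.53 CPM) and Cxcr5 (-1.06, 3.29 to 1.58 CPM), both at low levels, and in the integrin gene Itgb1 (-0.25, 138 to 116 CPM). Ccr9, under 1 CPM, rose but lost its call in 5 of 13 alternatives.

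In the list of inhibitory receptor genes, which also holds the ligand genes Cd274 and Cd200, more members fell than rose. Of 13 tested, 7 fell, 4 of them by over 1.5-fold, and 3 rose. Pdcd1, which encodes PD-1, stood at 71.1, 68.7 and 72.6 CPM at 0 μM and 34.4, 34.6 and 35.1 CPM at 10 μM (log2 fold change -1.03 ± 0.05, adjusted p = 2.03e-12). Tigit stood at 26.9, 25.2 and 25.3 CPM at 0 μM and 12, 10.6 and 11.7 CPM at 10 μM (log2 fold change -1.17 ± 0.07, adjusted p = 1.06e-10). Both were lower at 10 than at 5 μM as well (adjusted p = 3.23e-06 and 0.000308). Lair1 (-1.18, 7.0 to 3.1 CPM) and Cd160 (-0.87, 8.58 to 4.7 CPM) fell in the same range, and Ctla4 fell by less (-0.18, 123 to 109 CPM). In contrast, the receptor genes Lag3 (0.18, 135 to 153 CPM) and Btla (0.27, 193 to 233 CPM) rose. So did Cd274 (0.12, 186 to 202 CPM), the gene of a ligand of PD-1. Of 23 costimulatory receptor and TNF family genes, 12 rose and 5 fell, led upward by Tnfsf9 (1.19, 7.02 to 16 CPM), the gene of the 4-1BB ligand, and Tnfsf4 (0.86, 24.7 to 44.6 CPM), that of the OX40 ligand, and downward by Tnfrsf13c (-1.14, 22.5 to 10.2 CPM), the BAFF receptor gene, and Fasl (-0.92, 5.83 to 3.09 CPM). Cd28 averaged 270.2 CPM at 0 μM and 270.1 CPM at 10 μM and did not pass the test.

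The surface markers that define activation did not share a direction either. Cd44 stood at 193, 188 and 187 CPM at 0 μM and 191, 193 and 183 CPM at 10 μM, with overlapping groups (log2 fold change -0.00 ± 0.03, adjusted p = 0.934). Il2ra, which encodes CD25, rose slightly, at 420.2, 412 and 411 CPM at 0 μM and 486, 506 and 475 CPM at 10 μM (log2 fold change 0.24 ± 0.03, adjusted p = 1.51e-06), and the early activation gene Cd69 rose more, at 179, 167 and 174 CPM at 0 μM and 286, 288 and 287 CPM at 10 μM (log2 fold change 0.73 ± 0.03, adjusted p = 1.02e-12). The transferrin receptor gene Tfrc, needed by dividing cells, fell, at 697, 701 and 692 CPM at 0 μM and 519, 537 and 491 CPM at 10 μM (log2 fold change -0.43 ± 0.03, adjusted p = 2.25e-09). Ly6a (-1.30, 19.6 to 7.96 CPM), which encodes Sca-1, and Nt5e (-1.03, 7.03 to 3.44 CPM), which encodes CD73, fell by over 2-fold. Over the 12 markers tested, 6 rose and 4 fell.

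Most genes of naive and quiescent T cells rose. Of 24 tested, 20 rose and 2 fell (median 0.35). Tcf7, which encodes TCF-1, stood at 236, 246 and 240.1 CPM at 0 μM and 327, 320.2 and 345 CPM at 10 μM (log2 fold change 0.46 ± 0.03, adjusted p = 1.9e-09). Klf2, a driver of S1pr1, stood at 46.1, 45.1 and 45 CPM at 0 μM and 63.7, 58.7 and 63.9 CPM at 10 μM (log2 fold change 0.45 ± 0.05, adjusted p = 1.35e-06). Their groups did not overlap. Lef1 (0.39, 178 to 233 CPM), Foxo1 (0.34, 104 to 132 CPM), Klf3 (0.77, 25.4 to 43.5 CPM) and Btg1 (0.61, 371 to 566 CPM) rose, as did Btg2 (0.84, 23.5 to 42 CPM) and the genes of the RNA-binding proteins Zfp36 (0.80, 73.8 to 128 CPM) and Zfp36l1 (0.72, 127 to 209 CPM), which promote decay of AU-rich transcripts. Id3, an inhibitor of E proteins, went against the list at 33.7, 35.6 and 38.5 CPM at 0 μM and 24.3, 21.7 and 22.1 CPM at 10 μM (log2 fold change -0.66 ± 0.06, adjusted p = 6.2e-08). In RNA from whole cultures, more cells of a state and more RNA per cell in that state cannot be told apart.

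Of 25 lineage transcription factor genes, 13 rose and 6 fell. Tbx21, which encodes T-bet of T helper 1 cells, stood at 29.9, 29.1 and 27.6 CPM at 0 μM and 15.9, 14.9 and 15.4 CPM at 10 μM (log2 fold change -0.90 ± 0.07, adjusted p = 2.95e-09), while Gata3, the factor of T helper 2 cells, stood at 39.1, 41.2 and 37.6 CPM at 0 μM and 69, 71.7 and 71.6 CPM at 10 μM (log2 fold change 0.85 ± 0.04, adjusted p = 2.43e-11). These opposed each other with no overlap in either gene. Foxp3, of regulatory T cells, was low and rose (0.52, 6.68 to 9.62 CPM). Zbtb32 fell at 66.6, 64.2 and 66.8 CPM at 0 μM and 22.6, 25.7 and 23.7 CPM at 10 μM (log2 fold change -1.46 ± 0.05, adjusted p = 2.75e-13), and Irf8 fell (-0.61, 252 to 165 CPM), whereas Irf4 (0.43, 498 to 673 CPM) and the Ikaros family genes Ikzf2 (0.89, 3.47 to 6.45 CPM), Ikzf3 (0.74, 97.4 to 162 CPM) and Ikzf4 (1.06, 13.2 to 27.5 CPM) rose.

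Some cytotoxic effector genes fell. Nkg7, a granule protein gene, stood at 18.7, 17.3 and 18 CPM at 0 μM and 8.83, 7.69 and 7.54 CPM at 10 μM (log2 fold change -1.17 ± 0.09, adjusted p = 2.52e-09). Crtam stood at 14.7, 15.1 and 16.6 CPM at 0 μM and 6.07, 6.35 and 6.77 CPM at 10 μM (log2 fold change -1.27 ± 0.09, adjusted p = 1.68e-09). Gzmb stood at 46.6, 48.4 and 52.2 CPM at 0 μM and 32.1, 30.1 and 32.9 CPM at 10 μM (log2 fold change -0.63 ± 0.05, adjusted p = 1.64e-08). All 3 had separate groups, but over the list 3 of 12 genes fell and 2 rose. Markers of natural killer cells summed to 5.37 to 5.92 CPM at 0 μM and 1.89 to 2.89 CPM at 10 μM. The largest part was Klrk1 (-1.74, 5.05 to 1.49 CPM), and Gzma averaged 0.59 CPM at 0 μM and 0.608 CPM at 10 μM. Ncr1, Klrb1c, Klre1 and Klra8 were under 0.2 CPM in every one of the 6 libraries. Both CD8 markers together summed to 6.92 to 9.13 CPM at 0 μM and 6.45 to 7.43 CPM at 10 μM. Of the 8 GIMAP genes, GTPases of lymphocyte survival, 5 rose and 1 fell. Gimap3 stood at 322, 326 and 316 CPM at 0 μM and 519, 517 and 539 CPM at 10 μM (log2 fold change 0.71 ± 0.03, adjusted p = 4.22e-13), and Gimap5 (-0.22, 119 to 102 CPM) fell.

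**Figure D3:**
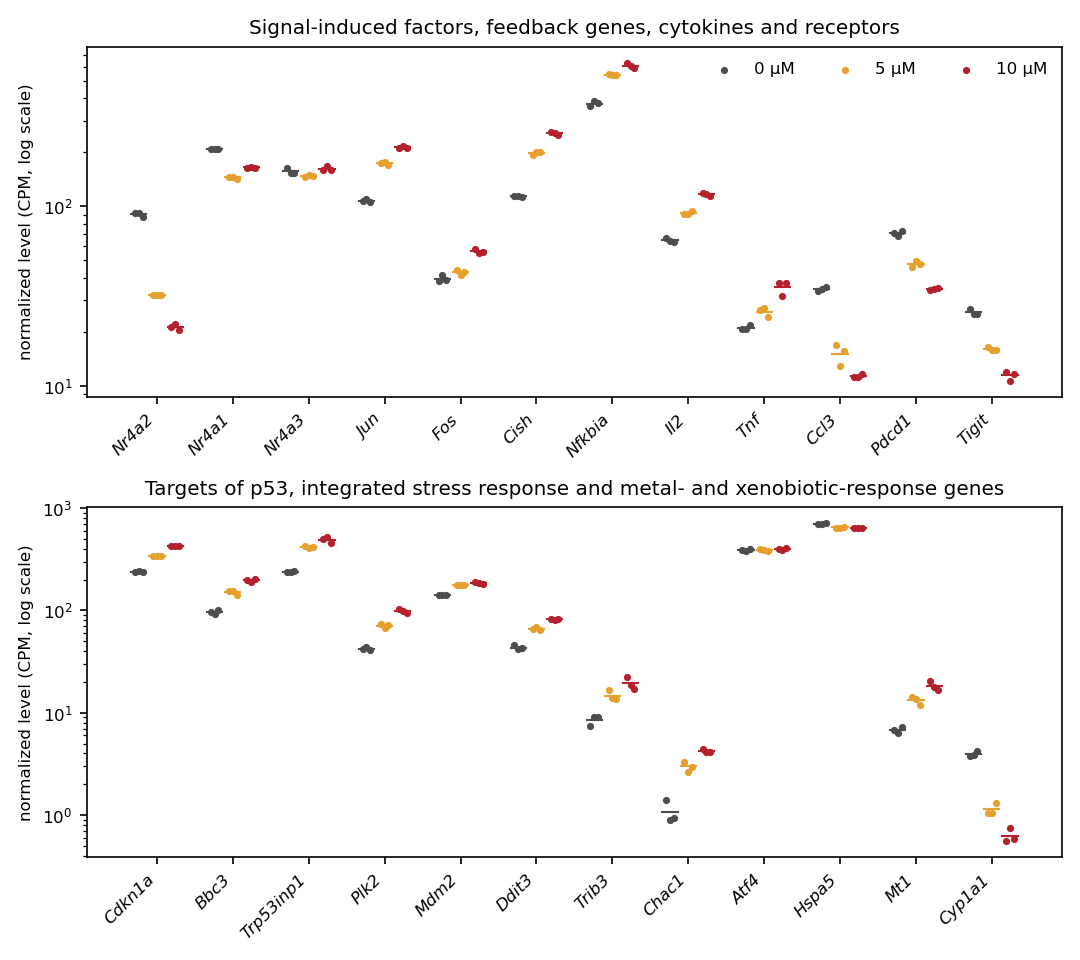
Normalized level in CPM (log scale) in each library of 12 genes of signaling, cytokines and receptors (upper panel) and 12 genes of stress responses (lower panel), with 3 points and a bar at their mean for each dose. Nr4a2, Ccl3, Pdcd1 and Cyp1a1 are lower and Cish, Il2, Cdkn1a, Chac1 and Mt1 higher at 10 μM, while the points of Nr4a3 and Atf4 overlap.

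Flavones can bind the aryl hydrocarbon receptor (AhR), a ligand-activated factor that induces Cyp1a1, and part of the AhR list was lower at 10 μM. Of 8 AhR genes tested, 4 fell, all by over 1.5-fold, and 0 rose. Cyp1a1 stood at 3.82, 3.88 and 4.23 CPM at 0 μM and 0.552, 0.745 and 0.587 CPM at 10 μM (log2 fold change -2.66 ± 0.23, adjusted p = 3.01e-08), and the gene of the AhR repressor, Ahrr, at 2.46, 2.14 and 2.16 CPM at 0 μM and 0.552, 0.695 and 0.948 CPM at 10 μM (log2 fold change -1.60 ± 0.29, adjusted p = 0.000143). Both had separate groups, and their 5 μM means were 1.14 and 0.725 CPM. The oxidoreductase gene Nqo1, shared with NRF2, fell (-0.64, 6.13 to 3.92 CPM), and Ugt1a7c fell but lost its call in 9 of 14 alternatives. Ahr itself (0.41, 1.55 to 2.05 CPM) and Tiparp (-0.08, 15.2 to 14.5 CPM) were not called. All 4 genes that fell were under 10 CPM. The letters TNGCGTG of the element that AhR binds were found in 1 of the 6 promoters in the table for the list (16.7%) and in 9.58% of all promoters. Among 25 NRF2 target and thiol redox genes, 14 fell and 2 rose. Srxn1, which encodes sulfiredoxin, stood at 11.9, 9.51 and 12.3 CPM at 0 μM and 5.97, 4.87 and 5.15 CPM at 10 μM (log2 fold change -1.08 ± 0.12, adjusted p = 4.83e-07), and Txn1 (-0.39, 395 to 302 CPM), Txnrd1 (-0.25, 239.7 to 202 CPM) and Prdx1 (-0.22, 255 to 219 CPM) fell by less. Hmox1 and Gclm, among the usual NRF2 targets, were not called, at 0.11 and 0.08, and Nfe2l2, which encodes NRF2, rose (0.39, 15.1 to 19.8 CPM).

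The metallothionein genes Mt1 and Mt2, whose products bind zinc and copper and which the zinc-sensing factor MTF-1 induces, rose together. Mt1 stood at 6.74, 6.37 and 7.27 CPM at 0 μM and 20.4, 17.8 and 16.6 CPM at 10 μM (log2 fold change 1.42 ± 0.10, adjusted p = 1.25e-09). Mt2 stood at 3.97, 4.68 and 5.16 CPM at 0 μM and 12, 11.7 and 12.5 CPM at 10 μM (log2 fold change 1.38 ± 0.11, adjusted p = 6.89e-09). Every 10 μM library was above every 0 μM library, and both genes were higher at 10 than at 5 μM (adjusted p = 0.0025 and 0.00188). Of the other zinc genes, Slc30a1, a zinc exporter gene that MTF-1 also induces, was not called (0.14, 16.1 to 17.8 CPM), nor was Mtf1 (-0.08, 28.8 to 27.1 CPM). The zinc importer genes Slc39a10 (-0.52, 34.2 to 23.9 CPM) and Slc39a8 (-0.41, 32.4 to 24.4 CPM) fell. Over the 15 genes tested, 4 rose and 3 fell. The core letters of the metal response element, TGCNCNC, were found on either strand in 12 of 13 promoters of this list (92.3%) and in 63.5% of all promoters, so the letters are common. The promoters of the pair, which rose together, are shown with each match in capitals. Mt1 held 3 matches and Mt2 held 6.
Mt1, chr8:94178839-94179138, plus strand: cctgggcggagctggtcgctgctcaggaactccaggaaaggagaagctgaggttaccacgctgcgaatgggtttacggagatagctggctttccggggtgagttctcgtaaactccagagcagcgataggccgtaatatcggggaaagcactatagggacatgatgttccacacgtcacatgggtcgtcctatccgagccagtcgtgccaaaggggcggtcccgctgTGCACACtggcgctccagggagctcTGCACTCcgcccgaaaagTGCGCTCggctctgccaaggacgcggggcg
Mt2, chr8:94172368-94172667, plus strand: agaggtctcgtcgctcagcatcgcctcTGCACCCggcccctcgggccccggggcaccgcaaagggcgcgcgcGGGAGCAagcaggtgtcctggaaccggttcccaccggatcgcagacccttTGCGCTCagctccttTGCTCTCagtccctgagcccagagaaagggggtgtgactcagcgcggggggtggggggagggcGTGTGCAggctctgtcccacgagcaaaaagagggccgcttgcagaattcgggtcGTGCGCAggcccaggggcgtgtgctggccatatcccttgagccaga

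The targets of p53 had one of the highest medians of the 55 lists, close to that of the cytokines. Of 33 tested, 25 rose, 15 of them by over 1.5-fold, and 2 fell (median 0.50), and the list summed to 3346, 3337 and 3363 CPM at 0 μM and 5036, 4964 and 4981 CPM at 10 μM. Cdkn1a, the p21 gene of cell cycle arrest, stood at 237, 243 and 238 CPM at 0 μM and 422, 424 and 429 CPM at 10 μM (log2 fold change 0.83 ± 0.03, adjusted p = 5.67e-14). Bbc3, which encodes the proapoptotic protein PUMA, stood at 95.9, 91.9 and 100.2 CPM at 0 μM and 198, 192 and 205 CPM at 10 μM (log2 fold change 1.04 ± 0.04, adjusted p = 4.88e-13). Trp53inp1 stood at 238, 236 and 241 CPM at 0 μM and 497, 518 and 453 CPM at 10 μM (log2 fold change 1.04 ± 0.04, adjusted p = 2.26e-13). They were 1.78, 2.06 and 2.05-fold higher with no overlap. Plk2 (1.21, 42.4 to 98 CPM), Phlda3 (0.96, 85 to 165 CPM), Pmaip1 (0.84, 21.7 to 38.9 CPM), which encodes NOXA, and Pidd1 (0.62, 112 to 173 CPM) followed, and Mdm2, the ligase gene in feedback on p53, rose by less (0.38, 143 to 186 CPM), as did Bax (0.38, 236 to 308 CPM). Trp53 itself rose slightly (0.14, 264 to 291 CPM). Tigar, of sugar metabolism, went the other way (-0.37, 15.1 to 11.7 CPM), and Sesn1 (0.01) and Rrm2b (-0.07) were not called. Ckap2 fell by 0.13 on the log2 scale and lost its call in 8 of 15 alternatives.

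Part of the integrated stress response rose. Kinases of eIF2α raise translation of ATF4, which then induces genes of amino acid supply and of cell death. Of 26 genes tested, 12 rose and 3 fell. Ddit3, which encodes CHOP, stood at 45.6, 41.7 and 42.9 CPM at 0 μM and 83.2, 80.6 and 83.3 CPM at 10 μM (log2 fold change 0.93 ± 0.04, adjusted p = 7.27e-12). Atf5 stood at 15.5, 15.7 and 16.2 CPM at 0 μM and 33.1, 32.7 and 32.8 CPM at 10 μM (log2 fold change 1.05 ± 0.06, adjusted p = 6.6e-11). Trib3 stood at 7.34, 9.06 and 9.0 CPM at 0 μM and 22.4, 18.7 and 17.2 CPM at 10 μM (log2 fold change 1.19 ± 0.11, adjusted p = 4.92e-08). In each, all 10 μM libraries were higher than all 0 μM libraries. Chac1, of glutathione breakdown, was lower in level and went further, at 1.41, 0.896 and 0.93 CPM at 0 μM and 4.42, 4.12 and 4.15 CPM at 10 μM (log2 fold change 1.98 ± 0.21, adjusted p = 3.33e-07). In contrast, the amino acid synthesis genes of the response did not rise: Asns (0.10) and Mthfd2 (-0.01) were not called, and Phgdh (-0.32, 271 to 216 CPM) and Psat1 (-0.21, 266 to 230.4 CPM) of serine synthesis fell. The transcript of Atf4, which is regulated mostly in translation, was not called at 385, 379.5 and 402 CPM at 0 μM and 402, 386 and 411 CPM at 10 μM. The kinase gene Eif2ak3 (PERK) rose (0.76, 40.9 to 69.2 CPM), and Eif2ak2 (PKR) fell (-0.41, 17.3 to 12.9 CPM).

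More chaperone genes fell than rose. In the unfolded protein response of the endoplasmic reticulum, 13 of 22 genes fell and 5 rose, none by over 1.5-fold, and without 0 μM replicate 3 only 3 were higher. Hspa5, which encodes BiP, stood at 705, 696 and 714 CPM at 0 μM and 641, 641 and 642 CPM at 10 μM (log2 fold change -0.14 ± 0.03, adjusted p = 0.00022), and Hsp90b1 (-0.38, 508 to 392 CPM), Pdia4 (-0.33, 94.3 to 75.2 CPM) and Hyou1 (-0.25, 176 to 149 CPM) fell, while Herpud1, of protein export for degradation, rose at 61.5, 63 and 57.3 CPM at 0 μM and 89.2, 88.2 and 86.1 CPM at 10 μM (log2 fold change 0.54 ± 0.04, adjusted p = 4.62e-09). Of 27 cytosolic and mitochondrial heat shock proteins and chaperonins, 18 fell and 2 rose (median -0.20), and the list summed to 15162, 15029 and 15224 CPM at 0 μM and 13337, 12907 and 13298 CPM at 10 μM. Hspd1, which encodes mitochondrial HSP60, stood at 859, 866 and 882 CPM at 0 μM and 645, 647 and 677 CPM at 10 μM (log2 fold change -0.41 ± 0.03, adjusted p = 7.16e-10). The 2 that rose were the stress-inducible Hsp70 genes Hspa1a (0.44, 13.3 to 18 CPM) and Hspa1b (0.19, 33.6 to 38.3 CPM), a close pair whose reads may be shared.

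Genes of cell death changed on both sides. Of 31 BCL2 family, caspase and necroptosis genes, 12 rose and 7 fell. Mlkl, the pore-forming protein gene of necroptosis, stood at 21.3, 22.1 and 22.7 CPM at 0 μM and 6.62, 7.69 and 8.17 CPM at 10 μM (log2 fold change -1.55 ± 0.09, adjusted p = 4.46e-11), while Ripk3, the kinase gene upstream of it, was not called (-0.02, 66.9 to 65.9 CPM). Both antiapoptotic and proapoptotic members rose: Bcl2 stood at 76.3, 72.9 and 73.1 CPM at 0 μM and 117, 119.9 and 107 CPM at 10 μM (log2 fold change 0.63 ± 0.04, adjusted p = 8.99e-10), Bcl2l1 (0.66, 136 to 216 CPM), which encodes BCL-XL, and Cflar (0.53, 161 to 233 CPM), which encodes FLIP, rose, and so did the p53 targets Bbc3 and Pmaip1. The effectors differed, with Bax (0.38, 236 to 308 CPM) higher and Bak1 (-0.31, 149 to 121 CPM) lower, and Bok, at 3.02, 3.29 and 2.92 CPM at 0 μM, fell to 1.36, 0.894 and 0.813 CPM.

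Brakes on PI3 kinase and mTORC1 rose more often than they fell. Of 21 tested, 11 rose and 1 fell (median 0.23). Pik3ip1 stood at 18, 16.8 and 18.3 CPM at 0 μM and 42.4, 40.7 and 43.8 CPM at 10 μM (log2 fold change 1.26 ± 0.07, adjusted p = 6.6e-11). Ddit4, which encodes REDD1, stood at 138, 137 and 143 CPM at 0 μM and 253, 245 and 247 CPM at 10 μM (log2 fold change 0.83 ± 0.03, adjusted p = 1.64e-13), and Sesn2, which encodes a leucine sensor, rose from 70.5 to 125 CPM (log2 fold change 0.83). The libraries of these genes did not overlap. Trib2 (0.93) and Tsc1 (0.34) rose also, whereas Tsc2 (0.09) was not called. In the MYC network 8 of 11 genes rose, among them both Myc, at 112, 106 and 107 CPM at 0 μM and 155, 159.7 and 162 CPM at 10 μM (log2 fold change 0.55 ± 0.04, adjusted p = 3.83e-10), and genes of its antagonists, Mxd1 (0.72, 29.9 to 49.3 CPM) and Mxd4 (0.79, 30.3 to 52.3 CPM). Among 21 transporter genes, 7 rose and 5 fell, with the lactate transporter gene Slc16a1 at 167, 163 and 163 CPM at 0 μM and 112, 104 and 99.3 CPM at 10 μM (log2 fold change -0.64 ± 0.04, adjusted p = 1.32e-10).

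Enzyme genes of central metabolism fell more often than they rose, mostly by small steps. In glycolysis, 12 of 21 genes fell and 3 rose. Ldha, which encodes the lactate dehydrogenase of glycolytic cells, stood at 2594, 2627 and 2611 CPM at 0 μM and 2211, 2116 and 2136 CPM at 10 μM (log2 fold change -0.28 ± 0.02, adjusted p = 3.33e-08), and Hk2 (-0.21), Eno1 (-0.26), Gapdh (-0.18) and Pkm (-0.15) fell. Eno2, the neuronal enolase, rose, at 64.8, 60.5 and 57.8 CPM at 0 μM and 113, 115 and 119 CPM at 10 μM (log2 fold change 0.92 ± 0.04, adjusted p = 2.7e-12), and so did Pdk2 (0.68, 3.11 to 4.96 CPM), a pyruvate dehydrogenase kinase gene. Among genes of tricarboxylic acid cycle and pyruvate enzymes, 18 of 24 fell and 0 rose (median -0.20). Their sum was 3382, 3424 and 3437 CPM at 0 μM and 3038, 2984 and 2961 CPM at 10 μM. Idh3a stood at 119, 127 and 122 CPM at 0 μM and 102, 91.6 and 90.7 CPM at 10 μM (log2 fold change -0.37 ± 0.04, adjusted p = 8.41e-07). Aco1 stood at 76.3, 82.2 and 80.3 CPM at 0 μM and 68.4, 71 and 66.4 CPM at 10 μM (log2 fold change -0.22 ± 0.04, adjusted p = 0.000237). Neither overlapped. Idh1 was low, at 2.67, 2.34 and 2.03 CPM at 0 μM and 1.51, 1.79 and 1.67 CPM at 10 μM, and did not pass the test (adjusted p = 0.0666). Aco1 and Idh1 are named because the study measured them by RT-qPCR, not as examples of the cycle.

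The study's interest lay in mitochondrial respiration, and the genes of the electron transport chain were lower, each by a little. Over the 5 nuclear-encoded lists, 62 of 90 genes fell and 4 rose, none by over 1.5-fold, against 23.5% of all genes tested that fell and 23.8% that rose. The share called in either direction grew with the level, to 63.5% of all genes at a mean log2 CPM of 6 to 8 and 72.5% over 8. Among the 62, the gene with the smallest change fell by 5.37%, and the one with the largest, Atpif1, fell by 30.3%. By complex, 23 of 37 genes of complex I fell, 5 of 8 of complex II, 8 of 9 of complex III, 13 of 20 of complex IV and 13 of 16 of ATP synthase, with medians of -0.15, -0.12, -0.21, -0.19 and -0.21. The complex I count was 28 without 10 μM replicate 1 (median -0.19) and 17 without 10 μM replicate 2 (median -0.10). In complex II, the succinate dehydrogenase, the catalytic subunit gene Sdha stood at 243, 257 and 254 CPM at 0 μM and 228, 236 and 235 CPM at 10 μM (log2 fold change -0.11 ± 0.03, adjusted p = 0.00607) and the iron-sulfur subunit gene Sdhb at 119, 123 and 117 CPM at 0 μM and 109, 94.8 and 102 CPM at 10 μM (log2 fold change -0.23 ± 0.04, adjusted p = 0.000182). Both sets of libraries were apart, although the levels were only 1.08-fold and 1.17-fold lower. Its assembly factor gene Sdhaf1 rose (0.45, 19.4 to 26.4 CPM), which left complex II with 1 gene higher. In complex I, Ndufc1 (-0.45, 19.9 to 14.6 CPM) and the assembly factor gene Nubpl (-0.39, 10.4 to 7.93 CPM) fell, the latter losing its call in 2 of 15 alternatives, and Ndufa6 (0.21, 80.4 to 92.9 CPM) rose. Cox18 (-0.35), an insertase of complex IV, fell, while Cox7a2l (0.24, 213 to 252 CPM) and Sco2 (0.31, 9.8 to 12.2 CPM) rose. Of ATP synthase, Atp5b stood at 1759, 1737 and 1731 CPM at 0 μM and 1440.5, 1377 and 1404 CPM at 10 μM (log2 fold change -0.31 ± 0.03, adjusted p = 1.91e-08), and Atpif1, which encodes the inhibitor of the enzyme, fell furthest (-0.52, 98.5 to 68.7 CPM), with Atp5k at -0.34.

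Transcripts from the mitochondrial genome were uneven. They took 2.63 ± 0.0307% of the counts at 0 μM and 2.5 ± 0.0268% at 10 μM (SD, n = 3), and 6 of 13 fell while 0 rose. The subunit transcript mt-Nd1 stood at 2563, 2549.8 and 2609.8 CPM at 0 μM and 1919, 1924 and 1865 CPM at 10 μM (log2 fold change -0.44 ± 0.02, adjusted p = 5.48e-11), and mt-Nd2 (-0.26, 1294 to 1079 CPM) and mt-Nd4l (-0.60, 51.4 to 34.1 CPM) fell. The most abundant, mt-Co1, stood at 12936, 13143 and 13249 CPM at 0 μM and 13069, 13558 and 12872 CPM at 10 μM, with overlapping groups (log2 fold change 0.01 ± 0.02, adjusted p = 0.853). These transcripts of the heavy strand come from a shared precursor RNA, and copies of mitochondrial sequence in the nuclear genome can share their reads.

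**Figure D4:**
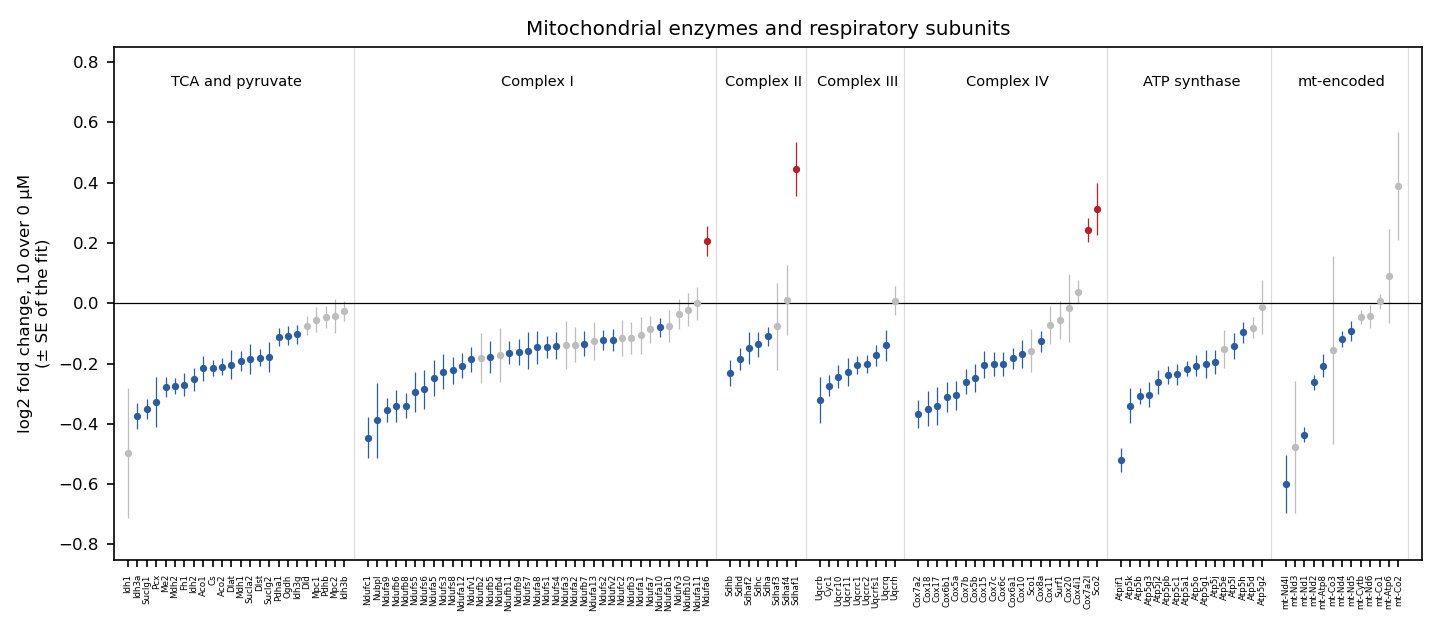
Log2 fold change of 10 over 0 μM acacetin (y axis, with bars for the standard error of the fit) of each gene, in order within each group (x axis). The groups are tricarboxylic acid cycle and pyruvate enzymes, complexes I to IV, ATP synthase and the mitochondrial genome. Genes called lower are blue, called higher red and others grey, and most points lie between 0 and -0.4, with Sdhaf1, Ndufa6, Cox7a2l and Sco2 called above 0 and mt-Nd4l, Atpif1, Ndufc1 and mt-Nd1 called below -0.4.

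Most genes of cholesterol synthesis fell. SREBP-2 drives these genes when sterols are scarce. Of 27 genes, 21 fell and 2 rose (median -0.34), and the list summed to 2778, 2763 and 2772 CPM at 0 μM and 2333, 2354 and 2305 CPM at 10 μM, with the groups apart. Hmgcs1, an early synthase gene of the pathway, stood at 179, 179 and 179.8 CPM at 0 μM and 113, 111 and 106 CPM at 10 μM (log2 fold change -0.70 ± 0.03, adjusted p = 2.89e-12). Idi1 (-0.52, 144 to 100.5 CPM), Cyp51 (-0.49, 169 to 120.0 CPM) and Sqle (-0.45, 76.9 to 56.3 CPM) fell by like amounts, and Mvd was not called (-0.01). The 2 that rose encode the regulators Srebf1 (0.27, 132 to 159 CPM) and Scap (0.15, 159 to 176 CPM). The list of targets of the liver X receptors (LXR), which sense oxysterols, went the other way: 5 of 7 genes rose and 0 fell. The 5 include Nr1h2, a gene of the receptors themselves. Abcg1, a sterol exporter gene, stood at 6.84, 6.27 and 5.83 CPM at 0 μM and 10.04, 10.7 and 9.89 CPM at 10 μM (log2 fold change 0.70 ± 0.11, adjusted p = 2.37e-05), Mylip (0.83, 2.63 to 4.65 CPM) rose, and Abca1, at 0.503, 0.249 and 0.254 CPM at 0 μM, reached 1.15, 1.04 and 1.13 CPM. In 18 of the 20 promoters found for the cholesterol genes the NF-Y letters CCAAT stood on one strand or the other, against 43.2% of all promoters. The letters TCACNCCAC of a sterol element, which SREBP can bind, were found in 1 of the 20 (5%) and in 1.35% of all promoters. The promoters of Hmgcs1 and Idi1, 2 of the 4 largest reductions of the list, are shown with the CCAAT matches in capitals.
Hmgcs1, chr13:119690101-119690400, plus strand: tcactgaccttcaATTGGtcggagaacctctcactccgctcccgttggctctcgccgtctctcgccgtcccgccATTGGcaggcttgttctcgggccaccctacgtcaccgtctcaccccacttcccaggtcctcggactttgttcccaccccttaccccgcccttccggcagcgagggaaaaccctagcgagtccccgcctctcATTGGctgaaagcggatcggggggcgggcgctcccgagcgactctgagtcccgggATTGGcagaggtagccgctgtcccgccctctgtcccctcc
Idi1, chr13:8885356-8885655, plus strand: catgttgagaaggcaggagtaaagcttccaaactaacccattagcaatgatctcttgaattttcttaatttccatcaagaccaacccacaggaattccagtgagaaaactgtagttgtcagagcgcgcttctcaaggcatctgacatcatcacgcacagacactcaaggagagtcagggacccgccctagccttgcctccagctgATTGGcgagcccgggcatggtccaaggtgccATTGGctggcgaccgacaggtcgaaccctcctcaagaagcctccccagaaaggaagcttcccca

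Genes of fatty acids fell more often than they rose, in synthesis (8 of 15, with 1 higher) and oxidation (14 of 26, with 1 higher). In synthesis, the desaturase gene Fads2 stood at 17.8, 13.9 and 15.4 CPM at 0 μM and 7.68, 7.6 and 9.3 CPM at 10 μM (log2 fold change -0.93 ± 0.11, adjusted p = 7.63e-07), and Elovl6 (-0.68, 25.1 to 15.7 CPM) fell, whereas Scd2 (0.26, 631 to 754 CPM), an LXR target, rose. In oxidation, Abcd3, a peroxisomal importer gene, stood at 65.4, 68.2 and 68.9 CPM at 0 μM and 36.2, 35.1 and 34.6 CPM at 10 μM (log2 fold change -0.94 ± 0.05, adjusted p = 8.51e-12), the isomerase gene Eci1 (-0.98, 9.84 to 4.98 CPM) fell by nearly as much, and Etfb (-0.39, 94.2 to 71.9 CPM), whose product passes electrons to the respiratory chain, fell by less. Abcd3 had separate groups. Etfdh, which acts next in that route, rose (0.26, 70.3 to 84.1 CPM).

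Interferon-induced genes moved both ways. Of 19 genes for IFITM proteins, guanylate-binding proteins and immunity-related GTPases, which restrict pathogens in the cell, 14 fell, 6 of them by over 1.5-fold, and 2 rose (median -0.34). Ifitm3 stood at 33.7, 34.4 and 33.1 CPM at 0 μM and 15.8, 15.1 and 15.6 CPM at 10 μM (log2 fold change -1.12 ± 0.06, adjusted p = 4.67e-11). Gvin2 stood at 117, 119 and 114 CPM at 0 μM and 64.3, 66.3 and 62.4 CPM at 10 μM (log2 fold change -0.86 ± 0.04, adjusted p = 1.09e-12). Tgtp1 (-0.61, 191 to 125 CPM), Iigp1 (-0.65, 102 to 64.7 CPM), Gbp7 (-0.64, 107 to 68.8 CPM) and Gbp2 (-0.34, 241 to 189.6 CPM) fell, whereas Gbp5 rose, at 186, 183 and 190.1 CPM at 0 μM and 221, 232 and 225 CPM at 10 μM (log2 fold change 0.27 ± 0.03, adjusted p = 4.8e-07), and so did Gbp8 (0.20). These families hold near-identical copies, such as Tgtp1 and Tgtp2, between which reads may have been split. Among 30 other interferon-stimulated genes, 9 rose and 7 fell: Oas3 (-0.91, 17.6 to 9.35 CPM) and the RNA sensor gene Ifih1 (-0.89, 59.4 to 32.1 CPM) fell, while Isg15 (1.20, 3.93 to 8.97 CPM) and Slfn1 (0.71, 50.9 to 83.1 CPM) rose. Genes of antigen presentation by MHC class I rose in 12 of 17 cases, by small amounts, such as H2-Q7 (0.46, 165 to 226 CPM) and H2-K1 (0.30, 1266 to 1557 CPM), and the 4 that fell included the immunoproteasome subunit genes Psmb10 (-0.56, 54.5 to 36.9 CPM), Psmb8 (-0.28, 416 to 343 CPM) and Psmb9 (-0.15).

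The interferon element GAAANNGAA was found on either strand in 11 of 12 promoters of the IFITM, guanylate-binding and GTPase list (91.7%), and in 8.46% of all promoters. The promoters of Gbp2 and Tgtp1, both lower at 10 μM, are shown with the match in capitals.
Gbp2, chr3:142620413-142620712, plus strand: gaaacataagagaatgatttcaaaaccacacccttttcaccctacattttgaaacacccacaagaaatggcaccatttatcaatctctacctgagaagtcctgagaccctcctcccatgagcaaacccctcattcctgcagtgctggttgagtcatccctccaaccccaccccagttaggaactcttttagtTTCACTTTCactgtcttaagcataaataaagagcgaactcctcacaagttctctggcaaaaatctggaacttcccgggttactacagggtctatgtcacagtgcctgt
Tgtp1, chr11:48992197-48992496, minus strand: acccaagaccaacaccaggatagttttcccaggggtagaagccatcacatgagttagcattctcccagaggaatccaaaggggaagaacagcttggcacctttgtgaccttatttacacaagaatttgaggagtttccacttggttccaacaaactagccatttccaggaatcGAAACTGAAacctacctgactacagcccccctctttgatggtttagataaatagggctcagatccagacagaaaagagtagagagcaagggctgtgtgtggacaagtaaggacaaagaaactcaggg

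Genes of the actin cytoskeleton and of the effector state fell, 19 of 32 against 2 that rose (median -0.22), and their sum was 19556, 19370.4 and 19532 CPM at 0 μM and 16608, 15774 and 16279 CPM at 10 μM. Actb, which encodes β-actin, stood at 4899, 4825 and 4836 CPM at 0 μM and 3960.2, 3761 and 3806 CPM at 10 μM (log2 fold change -0.34 ± 0.03, adjusted p = 3.41e-09). Actg1, γ-actin, stood at 2382, 2383 and 2358 CPM at 0 μM and 1726, 1637 and 1600.1 CPM at 10 μM (log2 fold change -0.52 ± 0.03, adjusted p = 2.92e-11). The groups were apart in both, although Actb is often taken as a constant reference. Plek, which encodes pleckstrin, stood at 52.5, 55.3 and 53 CPM at 0 μM and 22.3, 21.3 and 21.4 CPM at 10 μM (log2 fold change -1.31 ± 0.05, adjusted p = 3.87e-13), Myh10 was 2.17-fold lower, and Lgals1 (-0.78, 327 to 191 CPM) and Vim (-0.36, 649.7 to 505 CPM) fell, whereas Enc1 (0.85, 37.8 to 67.9 CPM) rose.

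Most transcripts of mitosis and DNA replication fell. Of 40 mitotic regulators, kinesins and centromere proteins, 34 fell and 2 rose (median -0.27), and the list summed to 6001, 5973 and 6005 CPM at 0 μM and 5152, 5239 and 5157 CPM at 10 μM. Plk1, the polo-like kinase gene of mitotic entry, stood at 117, 114 and 114 CPM at 0 μM and 74.6, 72.9 and 75.3 CPM at 10 μM (log2 fold change -0.63 ± 0.04, adjusted p = 1.12e-10), and Aurka (-0.48, 56.5 to 40.5 CPM), Pttg1 (-0.53, 46.8 to 32.5 CPM), Cenpe (-0.50, 95.7 to 67.5 CPM) and Cdc20 (-0.35, 236 to 185 CPM) fell. Psrc1, a p53 target that also serves the spindle, rose, at 156, 151 and 161 CPM at 0 μM and 260.5, 249 and 258 CPM at 10 μM (log2 fold change 0.71 ± 0.03, adjusted p = 2.03e-12), as did Kifc1 (0.13). Of 29 cyclin, CDK and inhibitor genes, 13 fell and 9 rose. Ccnb1, which encodes cyclin B1, stood at 175, 173 and 168 CPM at 0 μM and 119, 118 and 113 CPM at 10 μM (log2 fold change -0.56 ± 0.03, adjusted p = 1.04e-10), and Cdk1 (-0.39, 260.4 to 198 CPM), Ccna2 (-0.37, 262 to 202 CPM) and Ccne1 (-0.41, 84.3 to 63.4 CPM) fell, while the inhibitor genes Cdkn1a and Cdkn1b (0.52, 69 to 99.1 CPM) rose. DNA replication factors fell in 35 of 43 cases and rose in 0, by less (median -0.17), with the ribonucleotide reductase gene Rrm2 at 326, 328 and 329 CPM at 0 μM and 254, 253 and 240.2 CPM at 10 μM (log2 fold change -0.39 ± 0.03, adjusted p = 2.44e-09) and Mcm5 (-0.21, 547 to 473 CPM). Groups did not overlap in the genes named here.

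Of the 34 mitotic genes with a promoter, 24 (70.6%) held the letters TTTGAA of the cell-cycle homology region on either strand and 25 (73.5%) held CCAAT, against 14.3% and 43.2% of all promoters. The promoters of Plk1 and Cdc20 are shown as members that fell, with TTTGAA, or its reverse complement, in capitals.
Plk1, chr7:122159185-122159484, plus strand: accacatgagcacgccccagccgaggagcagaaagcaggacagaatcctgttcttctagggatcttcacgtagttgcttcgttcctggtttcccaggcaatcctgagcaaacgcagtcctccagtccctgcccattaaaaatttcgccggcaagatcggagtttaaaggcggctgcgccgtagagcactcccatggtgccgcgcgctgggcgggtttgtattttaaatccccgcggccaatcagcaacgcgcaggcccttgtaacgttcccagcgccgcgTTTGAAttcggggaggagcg
Cdc20, chr4:118437294-118437593, minus strand: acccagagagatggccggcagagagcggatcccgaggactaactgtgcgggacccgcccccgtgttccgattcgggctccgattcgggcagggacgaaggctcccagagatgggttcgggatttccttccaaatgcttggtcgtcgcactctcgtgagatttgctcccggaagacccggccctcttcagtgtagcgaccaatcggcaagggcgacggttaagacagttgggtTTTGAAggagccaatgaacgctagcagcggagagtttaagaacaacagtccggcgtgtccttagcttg
Among the genes called over 1.5-fold the shares were, for CCAAT, 41.2% among the 388 that rose and 41.3% among the 310 that fell and had a promoter, for TTTGAA, 16.8% and 15.8%, for GAAANNGAA, 8.51% and 11%, and for GGGNNTTCC, 7.22% and 6.77%. In all, 12 motifs were searched on both strands. A match describes the letters in this window only.

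Genes for making and degrading proteins differed in direction. Of 65 cytosolic ribosomal protein genes, 31 rose and 3 fell (median 0.08). Without 10 μM replicate 1 the median was 0.05 and 22 were higher, and without 0 μM replicate 3 or 10 μM replicate 2 only 1 was lower. Rplp0 stood at 4677, 4659.9 and 4779.7 CPM at 0 μM and 5705, 5528 and 5347 CPM at 10 μM (log2 fold change 0.23 ± 0.03, adjusted p = 7.04e-07). Their summed level, 88429, 89199 and 90765 CPM at 0 μM and 100124, 90501 and 95202 CPM at 10 μM, overlapped between the groups. In ribosome biogenesis, 30 of 35 genes fell and 0 rose (median -0.19), such as the pseudouridine synthase gene Dkc1 at 210.1, 199 and 211 CPM at 0 μM and 167, 162 and 160.5 CPM at 10 μM (log2 fold change -0.34 ± 0.03, adjusted p = 5.56e-08). Aminoacyl-tRNA synthetase genes fell in 13 of 20 cases and rose in 3. Proteasome subunit genes fell nearly throughout, in 30 of 34 cases against 1 (median -0.19), and their sum was 7148, 7153 and 7205 CPM at 0 μM and 6539, 6205 and 6492 CPM at 10 μM. Psme2, of the interferon-induced activator, stood at 229, 224 and 236 CPM at 0 μM and 190.3, 165 and 185 CPM at 10 μM (log2 fold change -0.35 ± 0.04, adjusted p = 2.15e-06), and the 1 that rose, Psmd8 (0.08, 392 to 416 CPM), lost its call in 3 of 15 alternatives. Autophagy genes rose in 14 of 29 cases and fell in 4, or in 2 without 0 μM replicate 1 or 3, with the initiating kinase gene Ulk1 at 59.3, 57.7 and 52.1 CPM at 0 μM and 84.8, 82.6 and 88.7 CPM at 10 μM (log2 fold change 0.60 ± 0.05, adjusted p = 1.1e-08) and the cargo receptor genes Sqstm1 (0.42, 188 to 251 CPM) and Nbr1 (0.51, 52.7 to 75.1 CPM). Of 19 potassium and calcium channel and pump genes, 10 fell and 4 rose, with Orai2 (0.64, 69.3 to 108 CPM) higher and the potassium channel gene Kcnk10 (-1.19, 2.47 to 1.08 CPM) lower.

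**Figure D5:**
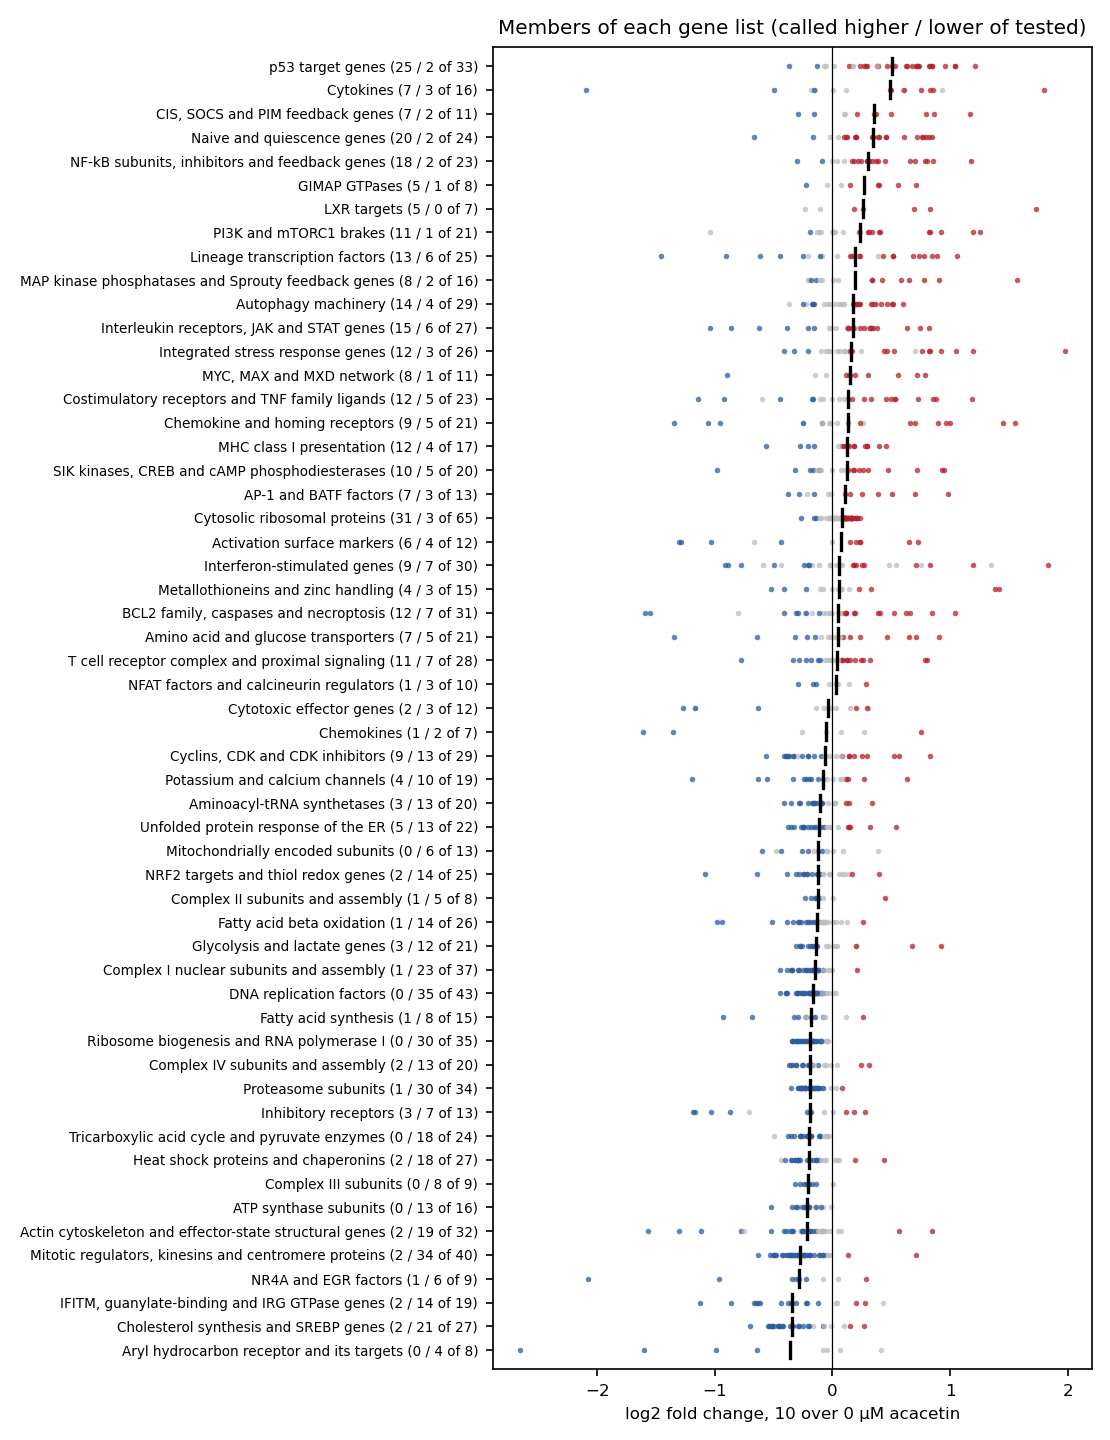
Log2 fold change of 10 over 0 μM acacetin (x axis) of each tested member of the 55 gene lists (y axis, ordered by median), with members called higher in red, called lower in blue and others in grey, and a black bar at each list's median. The label gives the numbers called higher and lower of those tested. Targets of p53, at the top, have a median of 0.50, while cholesterol synthesis and mitotic genes near the bottom lie almost wholly to the left of 0.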

How the data were processed

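RNA of CD4+ T cells cultured for 3 days with 0, 5 or 10 μM acacetin was sequenced in 3 libraries per dose. The authors deposited 1 matrix of expected counts per gene, not normalized, of which 24.1% of values were not whole. Their methods name HISAT2 and StringTie, as written for checking and trimming reads, and DESeq2 for testing, and their processing notes name GRCm39. For the aligner, counting settings, annotation and use of strand, not given in the sources used here, no assumption was made, and reads of overlapping or near-identical genes may be shared. Of 25757 entries, 964 shared 70 symbols, and 894 were left out so that each symbol kept its entry with the most counts.

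Counts were rounded, filtered with filterByExpr (12175 genes), scaled by TMM and tested with edgeR 4.0.16 (R 4.3.3) by quasi-likelihood over all 9 libraries, with Benjamini-Hochberg adjustment over all genes tested and a threshold of 0.05. The SE is the absolute log2 fold change over the square root of F. CPM values carry no prior count. The steps were checked on simulated counts. Alternatives were RLE factors, library totals, 2 other filters, every entry kept, the 0 and 10 μM libraries alone, DESeq2 1.42.0, the replicate number as a block, glmTreat (edgeR) and each library left out. Promoter sequences are those of RefSeq for GRCm38.p6, found for 9562 of the 12175 genes. No column of the matrix was left unmatched to a sample.

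The comparison, the 55 gene lists and the tests were chosen with earlier results of these data known. Some genes are counted in several lists, such as Sesn2, in those of p53 targets, of the integrated stress response and of PI3 kinase and mTORC1 brakes. Genes were named by a rule: the largest changes above and below a mean log2 CPM of 3 without overlap, the 15 smallest p, from every list at most 5 members ranked by p, those called over 1.5-fold and up to 2 against the direction of the rest, the genes the study measured by RT-qPCR, and cell type markers. Outside this rule, and chosen after their values were seen, are Actb, Actg1, Ahr, Asns, Atf4, Aurka, Bax, Cblb, Ccne1, Cd274, Cdk1, Cenpe, Ctla4, Dusp10, Egr2, Eif2ak2, Foxo1, Foxp3, Gbp2, Gclm, Hk2, Hmox1, Hspa5, Jak3, Klf2, Lat, Lcp2, Lef1, Mcm5, Mdm2, Mif, Mtf1, Mthfd2, Mvd, Nr4a3, Pde4b, Pde4d, Pkm, Prdx1, Psmb9, Ptpn6, Pttg1, Rela, Relb, Ripk3, Rrm2b, Sesn1, Sik2, Slc30a1, Sqle, Stat3, Tcf7, Tiparp, Trp53, Tsc1, Tsc2, Txnrd1, Vim, Zap70 and mt-Co1. Some genes of these lists are not reported here.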

Additional observations from a re-analysis of the deposited data

How the results depend on the processing

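All the alternatives kept the count of called genes within 1.5 times 5765 (4780 to 5869) and that over 1.5-fold within 1.5 times 911 (787 to 1011), except the test against a fold of 1.5 itself (edgeR's glmTreat), which called 252 genes. The lowest counts came from DESeq2 on the 0 and 10 μM libraries alone (4780 and 787) and the highest from a filter of a count in any library (5869 and 1011). With 1 library left out at a time, the counts were 4927 to 5500 and 835 to 904, and that of 10 against 5 μM ranged from 618 to 1471. A fit with the replicate number as a block called 5729 and 908 genes, and 996 between 10 and 5 μM. Same-numbered 0 and 10 μM libraries did not deviate together (correlations of -0.02, 0.03 and 0.08 across genes), so the numbers were not taken as pairs. No other scaling moved the median of all genes by as much as 0.1 on the log2 scale.

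Of 393 called genes that the naming rule covers, 374 kept the call and its direction in every alternative run on them, and 19 lost it in at least 1. Without 10 μM replicate 1, 3 of these turned in direction. With 1 library left out at a time, the log2 fold change ranged from -0.21 to 2.70 for Hba-a2, from -0.028 to 3.14 for Hbb-bs and from -0.13 to 3.28 for Lyz2. Of 23 that were not called, 5 were called in at least 1 alternative (Cd3d, Cd3e, Idh1, Igkc and Trac). Of the 55 lists, 52 kept the sign of their median. The AP-1 and BATF list ranged from -0.01 to 0.12, the chemokines from -0.16 to 0.03 and the NFAT list from -0.02 to 0.05. Depth limits the genes at a mean log2 CPM of 0 or less, of which 12.9% were called, all over 1.5-fold.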

Other observations

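A called change did not always separate the libraries: 287 called genes had overlapping 0 and 10 μM libraries, 36 of them over 1.5-fold. The following examples were chosen after their values were seen. Pagr1a, which encodes a partner of the MLL3 and MLL4 histone methyltransferases, stood at 0.956, 0.597 and 0.676 CPM at 0 μM and 0.903, 23.3 and 11 CPM at 10 μM, so that its call (log2 fold change 3.98, adjusted p = 0.000122, edgeR) rested on 10 μM replicates 2 and 3. Idi1-ps1, a pseudogene of the cholesterol gene Idi1, was at 2.19 CPM in 0 μM replicate 2 and at 0 in the other 5 libraries compared.

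Several transcripts of lung and blood were highest in 10 μM replicate 1. Sftpc, the surfactant protein C gene of alveolar cells, stood at 1.01, 1.39 and 1.86 CPM at 0 μM and 22, 2.48 and 1.26 CPM at 10 μM, Scgb1a1, the club cell secretory protein gene, at 2.62, 3.38 and 3.00 CPM at 0 μM and 37.2, 3.52 and 2.84 CPM at 10 μM, and Hbb-bs, a β-globin gene, at 0.503, 0.249 and 0.803 CPM at 0 μM and 8.98, 0.496 and 0.542 CPM at 10 μM. For each of these the other 10 μM libraries were at most a few CPM. Ager, another lung marker, differed from them, at 21, 24 and 27.4 CPM at 0 μM and 42, 32.1 and 34.1 CPM at 10 μM, and kept its call in all 15 alternatives, with a log2 fold change of 0.45 without 10 μM replicate 1. The origin of these transcripts was not tested.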
